A study of Mus musculus with 16 samples.

Results

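The genes described here are expressed by precursor cells of the bone marrow, and they were followed in cells sorted from the mouse olfactory mucosa. They are 4 genes of early myeloid granules (Mpo, Elane, Prtn3 and Ctsg) and 5 genes of B cell precursors (Rag1, Rag2, Vpreb1, Igll1 and Dntt). The genes were chosen by symbol, each through its probe set with the highest mean over 16 arrays. Of these 9 genes, 8 were measured, out of 19505 named genes on the array, and each had 1 probe set. Rag1 was not analysed here.

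The cells came from S100a5-tauGFP mice, in which GFP marks olfactory sensory neurons by their activity, and all groups carried this reporter. Mice of both sexes, 24 in all and aged 7 to 12 weeks, were housed singly in chambers of flowing clean air for 40 h, at 3.1 L/min. Starting at 26 h they received 10 s pulses every 20 min of 2-octanone, a ketone odorant, or of filtered air as vehicle. Each of 8 pools of 3 mice was sorted once, which gave 4 arrays each of GFP+ cells after 2-octanone, GFP+ cells after vehicle, GFP- cells after 2-octanone and GFP- cells after vehicle. GFP- cells are whatever the reporter did not mark, so they are a mixture. All 8 marker genes of mature olfactory neurons were above background on all 16 arrays, and their mean log2 signal was 16.97 to 17.18 in GFP+ cells and 16.35 to 17.00 in GFP- cells. Separate pools are separate mice, but each array averages 3 of them. The replicate 4 pools stood apart in S100a5, the gene behind the reporter. It was 13.92 in replicate 4 against 16.63 to 16.98 in the other GFP+ arrays given 2-octanone, and 13.22 against 16.47 to 16.71 in those given vehicle. Among GFP- arrays it was 13.55 against 15.68 to 15.77 with 2-octanone, and 13.11 against 15.45 to 15.81 with vehicle.

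Granulocytes fill their granules in stages. At the promyelocyte stage in the marrow, the first (primary or azurophil) granules receive myeloperoxidase, the product of Mpo, which makes hypochlorous acid, and the serine proteases neutrophil elastase (Elane), proteinase 3 (Prtn3) and cathepsin G (Ctsg). Their transcription is known to fall as the cell matures, when the genes of later granules are switched on, so that circulating neutrophils carry the proteins but little of the mRNA. In B cell precursors, RAG1 and RAG2 cut the immunoglobulin genes, terminal transferase (Dntt) adds bases at the joints, and VPREB1 and lambda-5 (Igll1) form the surrogate light chain of the pre-B cell receptor.

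PU.1, C/EBP factors and MYB are known to drive the primary granule genes, so the promoters of the 4 myeloid genes are shown to let the letters of these factors' motifs be seen in genes that were read together. The sequences are from RefSeq (GRCm38.p6), each 300 bases from 250 before the start site to 50 after it, on the gene's own strand. Mpo lies at chr11:87793534-87793833 (plus strand), Elane at chr10:79886062-79886361 (plus), Prtn3 at chr10:79879417-79879716 (plus) and Ctsg at chr14:56102525-56102824 (minus). Capitals mark the PU.1 word GAGGAA and the MYB word CAACNG, searched on both strands.
Mpo: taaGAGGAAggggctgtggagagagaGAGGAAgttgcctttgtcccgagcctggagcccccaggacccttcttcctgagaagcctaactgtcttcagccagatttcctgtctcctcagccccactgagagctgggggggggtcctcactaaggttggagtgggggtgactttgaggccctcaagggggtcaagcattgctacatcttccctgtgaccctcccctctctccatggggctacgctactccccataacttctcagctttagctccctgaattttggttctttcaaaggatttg
Elane: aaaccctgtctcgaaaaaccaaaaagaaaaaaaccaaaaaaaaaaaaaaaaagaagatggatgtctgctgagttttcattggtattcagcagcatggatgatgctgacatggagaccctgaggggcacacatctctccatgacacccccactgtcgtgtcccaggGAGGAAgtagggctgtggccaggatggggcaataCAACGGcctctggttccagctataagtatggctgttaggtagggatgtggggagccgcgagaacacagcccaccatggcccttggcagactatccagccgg
Prtn3: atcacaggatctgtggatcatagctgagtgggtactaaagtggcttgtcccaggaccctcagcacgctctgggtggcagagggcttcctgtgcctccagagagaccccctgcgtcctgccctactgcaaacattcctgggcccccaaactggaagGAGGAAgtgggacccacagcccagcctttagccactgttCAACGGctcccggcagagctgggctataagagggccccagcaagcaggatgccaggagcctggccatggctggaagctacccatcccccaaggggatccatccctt
Ctsg: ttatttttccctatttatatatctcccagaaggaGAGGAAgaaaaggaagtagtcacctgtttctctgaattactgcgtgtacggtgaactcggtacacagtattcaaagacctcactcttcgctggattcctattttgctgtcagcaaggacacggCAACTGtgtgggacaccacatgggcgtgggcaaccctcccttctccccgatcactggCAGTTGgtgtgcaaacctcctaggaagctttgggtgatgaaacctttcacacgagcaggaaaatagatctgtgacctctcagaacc

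All 4 promoters held GAGGAA, which was found in 28.3% of 32851 RefSeq promoters of this length, and 3 of the 4 held CAACNG (found in 35%), Mpo being the exception. The C/EBP word TTGCNNAA, found in 10.8% of promoters, was in none of the 4 windows. Of the 5 B precursor promoters, 3 held the PU.1 word, 1 held the MYB word and none held the C/EBP word. Elane and Prtn3 are neighbours on chromosome 10, and their promoters were laid out alike: the PU.1 word began 85 bases before the start of Elane and 95 bases before that of Prtn3, and the MYB word followed 34 and 39 bases further on. In Ctsg the PU.1 word began 216 bases before the start, and MYB words began 93 and 36 bases before it, the nearer one on the opposite strand. In Mpo PU.1 words began 247 and 224 bases before the start. These matches describe letters in a window and not bound sites.

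Signals are the authors' deposited values, read as log2. Background was set per array at the 95th percentile of its 23 background control probe sets, which lay at 7.61 to 8.18. By this measure the myeloid genes and the B precursor genes parted. All 4 myeloid genes were above background in GFP- cells, Mpo and Elane on 8 of 8 arrays and Prtn3 and Ctsg on 6 of 8. Rag2, Vpreb1, Igll1 and Dntt were below background on all 16 arrays. The GFP- samples therefore held measurable RNA of the early granule genes, while none of these 4 B precursor genes read above background. In GFP+ cells Mpo was above background on 2 of 8 arrays, Elane on 1, and Prtn3 and Ctsg on none.

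Mpo signals in GFP+ cells were 7.93, 7.48, 8.56 and 9.66 in replicates 1 to 4 with 2-octanone, and 7.87, 7.31, 6.95 and 6.92 with vehicle. The GFP- cells gave 13.79, 14.03, 11.54 and 14.34 with 2-octanone, and 14.08, 14.11, 12.18 and 14.54 with vehicle. Every GFP- array was above every GFP+ array, and the replicate 3 array was the lowest of GFP- cells in both exposures. Over the 2 exposures combined, the GFP+ minus GFP- difference of Mpo was -5.74 (log2, SE 0.43, 16 arrays of 8 pools, limma adjusted p = 2.32e-08), with 2 of 8 GFP+ arrays above background. This main fit, used for every gene here, did not pair the fractions of a pool. With the pool as a block, the SE for Mpo was 0.351 (limma adjusted p = 2.05e-07). After vehicle, where no GFP+ array was above background, Mpo was at least 54.4-fold lower in GFP+ cells, a bound that takes the lowest signal counted as above background in place of each GFP+ reading under it. The sort compares bulk RNA, in which fewer cells of a type and less RNA per cell cannot be told apart.

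For Elane the GFP+ readings after 2-octanone were 7.57, 6.92, 7.76 and 8.71, and those after vehicle were 7.13, 7.15, 7.28 and 6.29. Its GFP- readings were 12.95, 13.32, 10.04 and 12.94 after 2-octanone and 13.28, 13.75, 10.95 and 13.67 after vehicle. As for Mpo, the fractions did not overlap and replicate 3 was low in GFP- cells of both exposures. The difference was -5.26 (SE 0.48, limma adjusted p = 2.18e-07), with 1 of 8 GFP+ arrays above background. After vehicle, where all GFP+ arrays were under background, Elane was at least 30.9-fold lower in GFP+ cells.

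Ctsg was under background on all GFP+ arrays, with signals of 5.42, 5.18, 5.13 and 5.96 under 2-octanone, and 5.33, 5.15, 4.24 and 4.66 under vehicle. Its GFP- signals were 8.50, 9.23, 6.64 and 9.41 with 2-octanone, and 8.80, 8.57, 7.00 and 9.90 with vehicle. Both replicate 3 arrays were under background as well, and the fractions did not overlap. The fitted difference was -3.37 (SE 0.40, limma adjusted p = 5.51e-06), but since no GFP+ array was above background, the bound is at least 1.49-fold lower in GFP+ cells.

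Prtn3 too was under background on all GFP+ arrays, at 6.05, 6.17, 6.44 and 6.93 under 2-octanone, and 6.32, 5.97, 6.33 and 6.77 under vehicle. Its GFP- signals were 8.93, 9.37, 7.53 and 8.86 with 2-octanone, and 8.99, 9.54, 7.20 and 9.74 with vehicle. The replicate 3 GFP- arrays of both exposures were under background as well. The lowest GFP- array, replicate 3 after vehicle, lay 0.27 above the highest GFP+ array, a gap between readings under background. Prtn3 differed by -2.40 (SE 0.33, limma adjusted p = 2.42e-05), with at least 1.79-fold lower signal in GFP+ cells as its bound. Differences were not set against each other between the 4 genes, because background limits Ctsg and Prtn3, and Mpo and Elane on most GFP+ arrays.

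**Figure D1:**
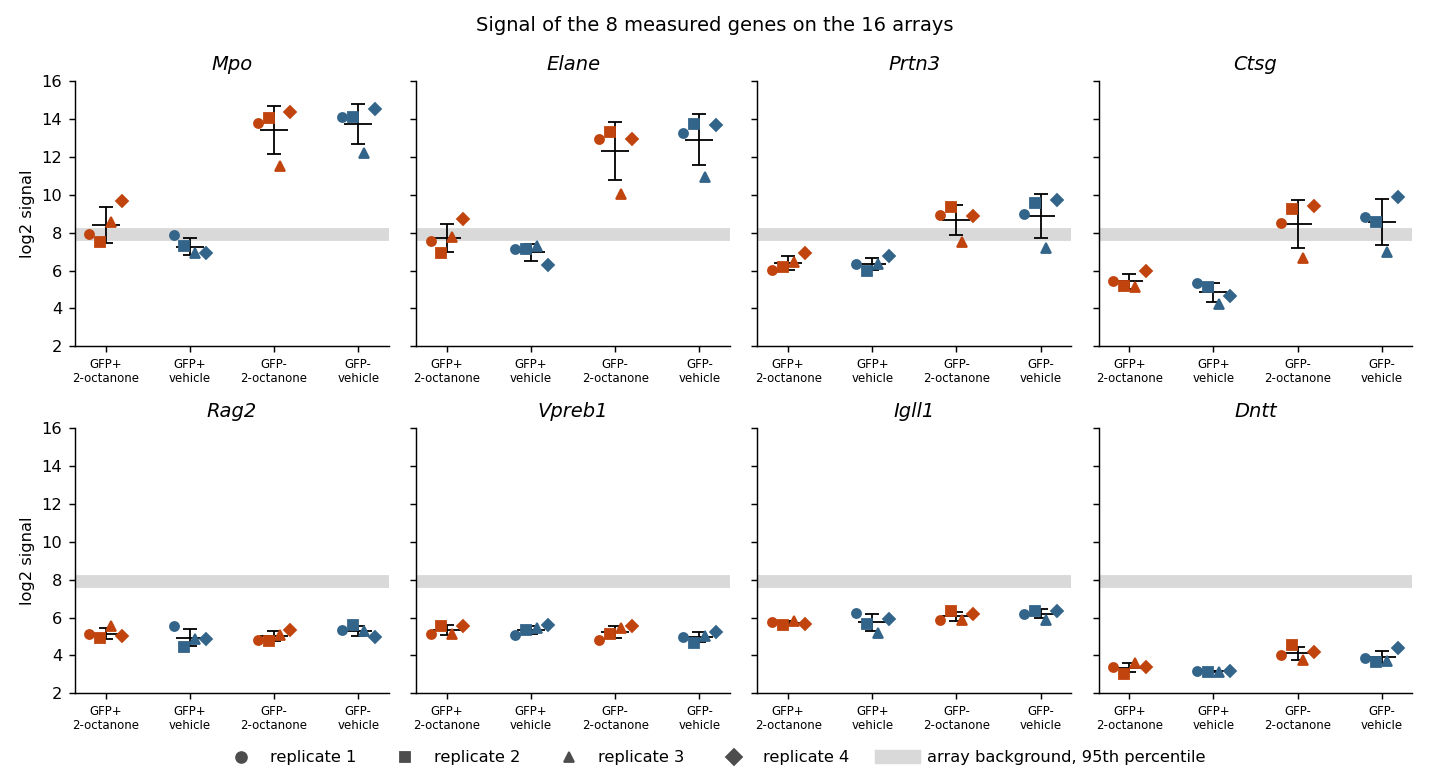
Log2 signal of the 8 measured genes on each of the 16 arrays, grouped as GFP+ after 2-octanone, GFP+ after vehicle, GFP- after 2-octanone and GFP- after vehicle, with group means and SD (n = 4 arrays) and the range of the array backgrounds, 7.61 to 8.18. Mpo and Elane are above background on all 8 GFP- arrays, and the 4 B precursor genes are below it on all 16 arrays.

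Of the 8 measured genes, 6 were called in the sort over both exposures, all lower in GFP+ cells, where 30.7% of 19572 probe sets were called and 14% were called lower. The median difference of all probe sets was 0.13, and of called probe sets 54.4% were higher in GFP+ cells. Centring each array on its median raised the median to 0.41, a shift of 0.28, and the share higher to 86.4%, and 66.9% of all probe sets were then called higher and 10.5% lower, which is the base for the counts with centring given here. All 4 myeloid genes were called lower with it too, with Mpo at -5.46 and Prtn3 at -2.12. Without both replicate 4 pools the 4 were called lower as well, with Mpo at -5.61, Elane at -5.08, Ctsg at -3.05 and Prtn3 at -2.38. Within exposures 5 of 8 genes were called lower after 2-octanone (15.1% of probe sets called, 9.8% lower) and 5 of 8 after vehicle (18.6% called, 11% lower), in each case the 4 myeloid genes and Dntt.

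The B precursor genes called were read wholly under background, so their differences have no fold. Dntt read 3.01 to 3.60 in GFP+ cells and 3.67 to 4.55 in GFP- cells, and differed by -0.76 (SE 0.13, limma adjusted p = 0.000256). Its ranges were apart by 0.07 only, with no share of all probe sets given here to read that against. Its call after 2-octanone was lost without replicate 2 of that exposure (limma adjusted p = 0.104), and its call after vehicle without both replicate 4 pools (0.0567). Igll1 read 5.19 to 6.24 in GFP+ cells and 5.87 to 6.37 in GFP- cells, with overlap, and differed by -0.41 (SE 0.13, limma adjusted p = 0.0313). Its call was lost with median centring (-0.13, adjusted p = 0.394) and with quantile normalisation (adjusted p = 0.0646). It was also lost in limma without replicate 2 (adjusted p = 0.108) or 4 (0.0806) after 2-octanone, without replicate 2 (0.0945) or 4 (0.058) after vehicle, and without both replicate 4 pools (0.114). Vpreb1 read 5.08 to 5.60 in GFP+ cells and 4.66 to 5.54 in GFP- cells, a difference of 0.25 that was not called (limma adjusted p = 0.167), and with median centring it was called at 0.52 (adjusted p = 0.00306). Rag2 read 4.45 to 5.57 in GFP+ cells and 4.79 to 5.63 in GFP- cells and was not called (-0.11, limma adjusted p = 0.604, and 0.17 with median centring). The signs among these 4 genes were mixed, with a median difference of -0.26, against 0.13 for all probe sets, and with median centring the median was 0.02 with 1 gene called in each direction.

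Since a pool's GFP+ and GFP- cells were taken from the same 3 mice, each pool gives its own difference. In all 8 pools each of the 4 myeloid genes was lower in GFP+ cells, with an exact two-sided sign-flip p of 0.00781 each, the smallest that 8 pools can give. Per pool the Mpo difference ran between -7.62 and -2.97, that of Elane between -7.38 and -2.28, that of Ctsg between -5.23 and -1.51 and that of Prtn3 between -3.57 and -0.87. The same test gave 0.00781 for Dntt (8 of 8 pools lower), 0.0156 for Igll1 (7 of 8 lower), 0.0469 for Vpreb1 (7 of 8 higher) and 0.625 for Rag2 (4 of 8 lower), 8 tests in all and none adjusted. The share of all probe sets that were lower in 8 of 8 pools, or without overlap, is not given here. These counts therefore have no base to be read against.

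**Figure D2:**
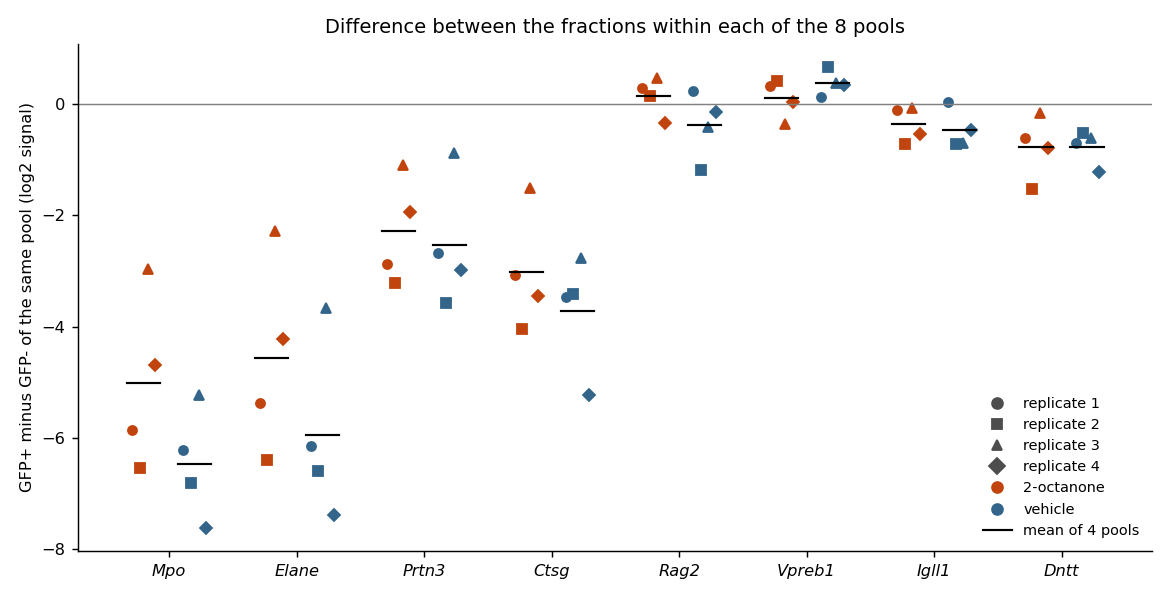
GFP+ minus GFP- difference in log2 signal within each of the 8 pools, by gene, with 2-octanone and vehicle pools marked. Every point of Mpo, Elane, Prtn3, Ctsg and Dntt is below 0, and the points of Rag2 lie on both sides.

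The replicate 3 pools stood apart in how low the early granule genes were. In GFP- cells the mean log2 signal of Mpo, Elane, Prtn3 and Ctsg was 8.94 in replicate 3 after 2-octanone, against 11.04 to 11.49 in the other 3 pools, and 9.33 in replicate 3 after vehicle, against 11.29 to 11.96. Partners of the primary granule genes were lowest in replicate 3 too, by less. They averaged 10.08 against 10.43 to 11.46 after 2-octanone and 10.34 against 10.58 to 11.63 after vehicle. Regulators of granulocyte progenitors were nearly level in replicate 3 with the next pool after 2-octanone, at 8.95 against 8.96 to 9.63. After vehicle replicate 3 was lowest for them, at 8.97 against 9.13 to 10.03. Bone genes, of which 6 of 7 were below background on all arrays, read 5.67 in replicate 3 against 5.96 to 6.01 after 2-octanone. After vehicle they read 5.74, nearly level with the other pools at 5.77 to 6.27. Erythroid genes were not lowest in replicate 3 after 2-octanone, at 8.52 against 8.49 to 9.08. After vehicle they were nearly level with the next pool, at 8.43 against 8.45 to 10.14. Genes of later granules, such as Ltf (lactoferrin) and Camp (cathelicidin), averaged 13.08 in replicate 3 after 2-octanone, against 13.03 to 14.33, and 13.28 after vehicle, against 13.47 to 14.17. Mature neutrophil genes averaged 12.82, against 12.20 to 14.69, after 2-octanone and 12.54, against 12.89 to 14.05, after vehicle. The later granule and neutrophil lists were thus within the range of the other pools after 2-octanone and a little below it after vehicle, while the early genes lay well below it in both. The highest pool of both lists in both exposures was replicate 4, where S100a5 was low, and the part of that was not tested. Genes of dividing cells, of which 9 of 9 were called lower in GFP+ cells (Mki67 at -5.21, Kif11 at -2.65), were lowest in replicate 3 too, at 7.92 against 8.60 to 9.19 after 2-octanone and 8.17 against 8.70 to 9.97 after vehicle. Their part in the result was not tested. With the replicate 3 pools of both exposures left out, which was decided on once their values were known, the myeloid genes differed by -6.29 (Mpo), -6.03 (Elane), -3.78 (Ctsg) and -2.87 (Prtn3) in the sort, all called.

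GFP+ cells also differed between pools. In GFP+ cells after 2-octanone, later granule genes averaged 6.70, 6.83, 8.64 and 10.73 in replicates 1 to 4 and mature neutrophil genes 6.80, 6.58, 8.50 and 10.97, while after vehicle the later granule genes averaged 6.62 to 7.31 and the neutrophil genes 6.28 to 7.55. The 4 early genes averaged 6.74, 6.44, 6.97 and 7.81 after 2-octanone and 6.16 to 6.66 after vehicle, so replicate 4 after 2-octanone was the highest in all 3 lists. Every one of these early gene averages lay under its array's background, the highest at 7.81 against 7.93. Replicates 3 and 4 after 2-octanone were also the only GFP+ arrays on which Mpo was above background.

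**Figure D3:**
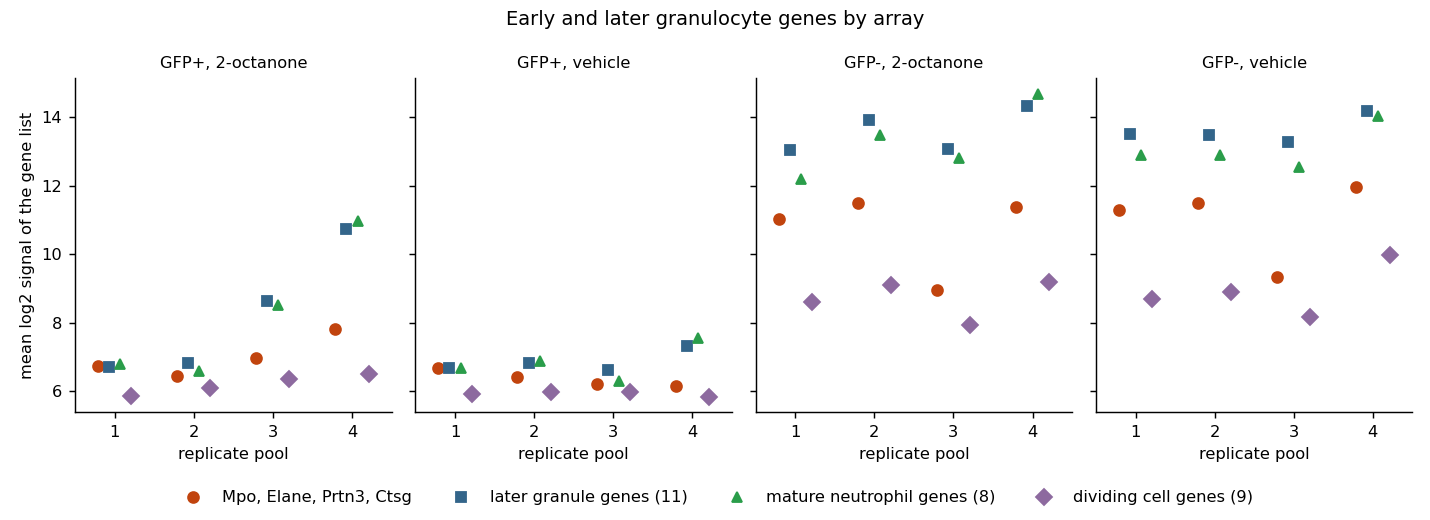
Mean log2 signal per array of the 4 early granule genes, later granule genes, mature neutrophil genes and genes of dividing cells, by pool and group. In GFP- cells the early granule genes are lowest in replicate 3 of both exposures (8.94 after 2-octanone and 9.33 after vehicle), and in GFP+ cells the later granule and neutrophil genes are highest in replicates 3 and 4 after 2-octanone.

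The comparison of exposures asks whether the odorant changed these genes in either fraction. None of the 8 genes was called in GFP+ cells (0% of probe sets called), in GFP- cells (0.00511%, which is 1 probe set) or for the odorant's effect on the GFP+/GFP- ratio (0%). In the main limma fit none had an unadjusted p under 0.05 in any of the 3, against 618, 477 and 465 of all probe sets. In GFP+ cells Mpo averaged 8.41 ± 0.95 after 2-octanone and 7.26 ± 0.44 after vehicle (SD, n = 4 each, exact permutation p = 0.0571, where 0.0286 is the smallest possible). Its difference of 1.15 (SE 0.60, limma adjusted p = 1) was 0.73 without replicate 4 after 2-octanone, the GFP+ array with the highest neutrophil genes, whose part was not tested, and 0.62 without both replicate 4 pools. Elane differed by 0.77 (SE 0.67), Ctsg by 0.58 (SE 0.57) and Prtn3 by 0.05 (SE 0.46) in GFP+ cells, where Elane was above background on 1 of 8 arrays and the other two on none. Without replicate 4 after 2-octanone these were 0.45 (Elane), 0.40 (Ctsg) and -0.13 (Prtn3), and without both replicate 4 pools 0.23, 0.34 and 0.01. Without replicate 3 after vehicle Ctsg differed by 0.38. In GFP- cells the 4 differences were -0.30 (Mpo), -0.60 (Elane), -0.20 (Prtn3) and -0.12 (Ctsg), with SE of 0.46 to 0.67, and all 4 turned positive without replicate 3 after 2-octanone (0.33, 0.16, 0.19 and 0.48), which leaves the low replicate 3 array of vehicle in place. Without the replicate 3 pools of both exposures they were -0.19, -0.50, -0.37 and -0.04, none called. Replicate number was also taken as a block, although no label says that it pairs the exposures, and this left the differences as they were. In GFP- cells the SE was then 0.148 for Mpo, 0.152 for Elane, 0.197 for Prtn3 and 0.202 for Ctsg, and none was called (limma adjusted p = 0.998 each). In GFP+ cells it was 0.436 for Mpo, 0.393 for Elane, 0.128 for Prtn3 and 0.232 for Ctsg, none called (limma adjusted p = 0.928, 0.928, 0.993 and 0.928). Unadjusted p of the blocked fits is not given here. The ratio changed by 1.45 (SE 0.85) for Mpo, 1.37 (SE 0.95) for Elane, 0.70 (SE 0.81) for Ctsg and 0.24 (SE 0.66) for Prtn3. Leaving out 1 pool at a time moved these to between 0.77 and 1.96 for Mpo, 0.61 and 2.14 for Elane, 0.20 and 1.04 for Ctsg and -0.15 and 0.79 for Prtn3. The lowest Mpo, Elane and Prtn3 values came without replicate 3 after 2-octanone, and Ctsg was at 0.20 without either that pool or replicate 4 after vehicle. The highest values came without replicate 2 after 2-octanone for Mpo and Ctsg, and without replicate 3 after vehicle for Elane and Prtn3. Missing the threshold with these standard errors does not show that the exposures acted alike.

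Partners of the primary granule genes were lower in GFP+ cells too, with 7 of 8 called and a median difference of -2.43, where 14% of all probe sets were called lower. Serpinb1a, an inhibitor of elastase and cathepsin G, differed by -4.70 (SE 0.31, limma adjusted p = 6.78e-09), Lyz2 (lysozyme) by -4.69 (SE 0.43, adjusted p = 2.61e-07) and Srgn, the proteoglycan that packs granule proteases, by -2.49 (SE 0.25, adjusted p = 6.45e-07). Ctsc, the protease that activates these serine proteases, differed by -2.38 (adjusted p = 6.94e-05), and Ms4a3, a gene of granulocyte and monocyte progenitors, by -3.41 (adjusted p = 1.51e-05). Prss57 (neutrophil serine protease 4) was not called (-0.21, adjusted p = 0.244) and was under background on all arrays. Cst7 was called (-0.73, adjusted p = 0.00385) but was under background on all arrays as well. Of the regulators of granulocyte progenitors 7 of 8 were called lower, with a median of -2.05: Myb differed by -4.44, Spi1, which encodes PU.1, by -5.34 and Runx1 by -2.58, while Gfi1 was not called (-0.07, adjusted p = 0.748). Among the C/EBP genes, Cebpa differed by -0.62, Cebpd by -2.16 and Cebpe by -1.94, the last above background on 1 of 8 GFP- arrays. Of the 8 regulators, 5 were above background on 4 or more GFP- arrays.

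Later granule genes were called lower in GFP+ cells in 11 of 11 cases, with a median of -6.85, and mature neutrophil genes in 8 of 8, with a median of -5.17. Cybb, a subunit of the phagocyte oxidase, differed by -4.83, Itgam by -6.17 and Ltf by -6.61 (SE 0.48, limma adjusted p = 1.74e-08), and Csf3r, the receptor of the growth factor G-CSF, by -5.35. Erythroid genes, a sign of blood or marrow RNA, were called lower in 6 of 6 cases (median -1.97), with Rhag at -3.22 and Slc4a1 at -2.29, and the list averaged 6.67 to 7.39 in GFP+ cells and 8.43 to 10.14 in GFP- cells. Bone genes, which dissected tissue could bring in, were called in 1 of 7 cases: Acp5, a gene of osteoclasts and also of macrophages, at -2.0, while the other 6 were below background on all arrays; median centring called 4 of the 7 higher, and 66.9% of all probe sets. The part of blood or bone in the readings of the early granule genes was not tested.

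Lists around the B precursor genes were read above background only in part. Of 12 partners, 7 were called lower in GFP+ cells (median -0.85), among them Cd24a, a surface protein shared with neutrophils, at -5.39 (SE 0.42, limma adjusted p = 4.05e-08), Cd79a, an arm of the B cell receptor, at -3.01 (SE 0.24, adjusted p = 4.3e-08), Cd79b at -2.70 and Il7r, the interleukin 7 receptor, at -2.35. Cd79a and Il7r were above background on 8 of 8 GFP- arrays and on no GFP+ array. Pax5, the factor that commits cells to the B lineage, was under background on all arrays and not called (-0.49, adjusted p = 0.088). Ebf1, known also as a factor of olfactory neurons, read 16.32 in GFP+ cells and 16.12 in GFP- cells and was not called (0.20, adjusted p = 0.218), a gene noted after its value was seen. With median centring 6 of the partners were called lower and 3 higher. Of 8 general factors that V(D)J recombination draws on, 1 was called higher (Nhej1, a factor of DNA end joining, 0.34) and 1 lower (Hmgb2, a DNA-bending protein that aids RAG cutting, -1.36), with a median of 0.20, and with median centring, which called 66.9% of all probe sets higher, 6 were called higher and 1 lower. Mature B genes were called lower in 4 of 6 cases (median -0.79), among them Ms4a1, the gene of CD20, at -2.07, and in 3 of 6 with median centring, which called 1 higher. Ms4a1 was above background on 2 of 8 GFP- arrays.

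**Figure D4:**
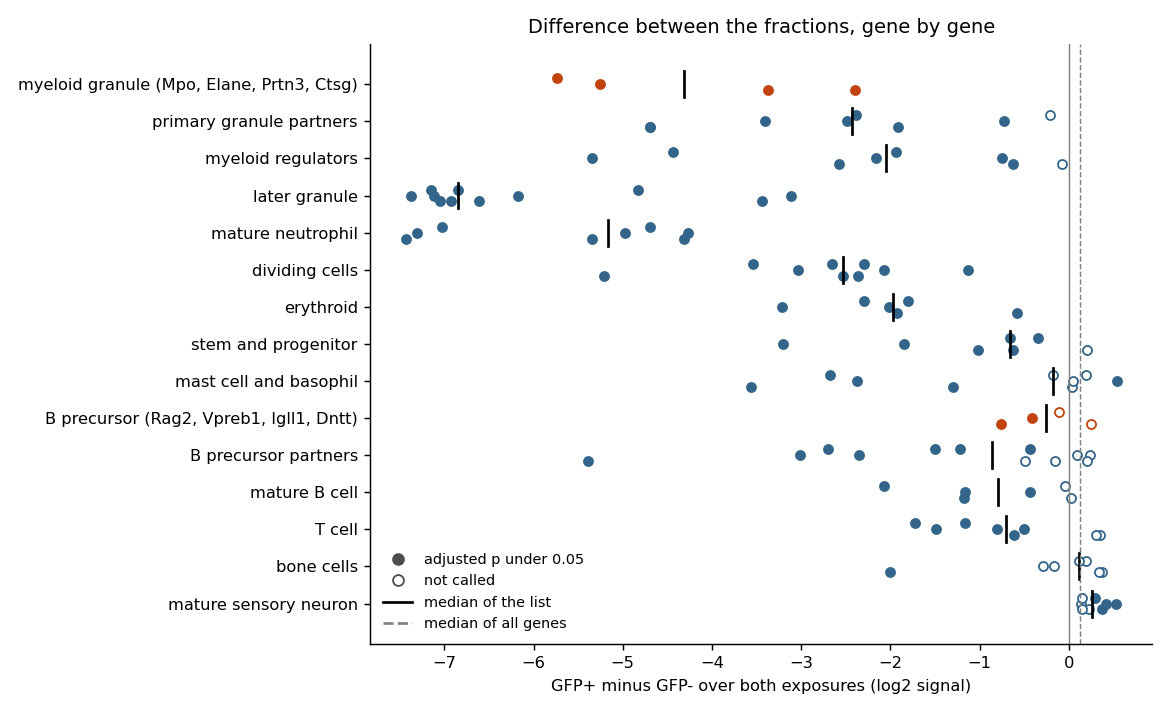
GFP+ minus GFP- difference in log2 signal over both exposures for each gene of the lists, one row per list, filled where limma called it at an adjusted p under 0.05, with a bar at the list's median and a dashed line at the median of all genes, 0.13. The medians of later granule genes (-6.85) and mature neutrophil genes (-5.17) lie farthest to the left, and that of mature sensory neuron genes (0.26) lies right of 0.

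Among 10043 genes above background on at least 4 GFP- arrays, the 5 whose log2 signal over the 8 GFP- arrays was most like the mean of Mpo, Elane, Prtn3 and Ctsg were Ms4a3 (r = 0.944), Cntrob, a gene of centriole assembly (0.936), Mtbp (0.921), Bub1, a kinase of the mitotic checkpoint (0.921), and Bpifb3 (0.916). The 8 arrays share their sort and the 2 low replicate 3 pools, so these values describe a resemblance. Ms4a3 read 6.76 in replicate 3 after 2-octanone and 7.57 in replicate 3 after vehicle, against 8.48 to 10.07 on the other GFP- arrays. For the mean of the 4 B precursor genes, which lay under background, the nearest were Tial1 (0.986), Wfdc17 (0.985), Tmem165 (0.981), Il13ra1 (0.98) and AB124611 (0.979).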

How the data were processed

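The values are the authors' deposited signals of 16 Clariom S mouse arrays, read as log2. Affymetrix Expression Console is the software given in the submitters' processing notes. The log base and the normalisation are not given in the sources used here. Per the labels' protocols, 50 to 100 ng of total RNA was used per array. From the deposited values, limma 3.58.1 in R 4.3.3 (lmFit, eBayes, group means of 4 groups, 12 residual and 4.19 prior degrees of freedom) tested 19572 named probe sets, two-sided, with Benjamini-Hochberg adjustment and calls under 0.05. The number of arrays limits the precision. The genes and lists were chosen with earlier results of these data known; the rule for named genes gave all members and the 2 to 4 genes of smallest p in each list; only some of these are named, and others were singled out after their values were seen. Pools pair the fractions, as both come from the same mice (correlation of residuals -0.00 to 0.46). Bounds replace readings under an array's lowest signal above background by that signal. Alternatives were quantile normalisation, median centring, limma with trended prior and robust fitting, filters on dim probe sets, only the arrays compared, the mean of a gene's probe sets, leaving out pools, and blocks. Leaving out both replicate 3 pools and the list counts under each scaling were chosen after seeing the data.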

Additional observations from a re-analysis of the deposited data

Results flagged for a closer look

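The gap of 1 array to the rest of its group of 4, as a share of the group's range, was above Dixon's 95% critical value for Elane in 3 groups, of 48 tested over the 8 genes and 4 list means. Chance flags about 1 in 20 groups. In GFP+ cells after vehicle the lowest Elane reading was 6.29, in replicate 4, against 7.13 to 7.28 on the other 3 arrays (share 0.843), all under background. In GFP- cells after 2-octanone it was 10.04, in replicate 3, against 12.94 to 13.32 (share 0.884). In GFP- cells after vehicle it was 10.95, in replicate 3, against 13.28 to 13.75 (share 0.831).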

How the results depend on the processing

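The 4 myeloid genes kept their direction and call in the sort under 206 of 206 alternatives. Mpo lay between -6.29 and -5.46 and Prtn3 between -2.87 and -2.12 over both exposures. Over all single genes, 573 of 600 alternatives gave the same call and sign, 9 lost a call, 2 gained one and 16 changed sign. Part of the alternatives in both counts could not move a difference, only its SE and adjusted p. Filters, the trended and robust fit, blocks, only the arrays compared, and leaving out a pool of the other exposure are of this kind. Each member had 1 probe set, so the mean of a gene's probe sets was no new reading of it. Median centring called 15141 genes over both exposures against 6000, 9535 against 2955 after 2-octanone and 11289 against 3633 after vehicle, and turned Rag2 to 0.17. A filter that drops the dimmer part of the probe sets, below the median of their means, called 3664, 1811 and 2221 genes and 2 members in each sort, since only Mpo and Elane pass it. Leaving out 1 pool gave 1963 to 3496 calls in the sort after 2-octanone, the lowest without octanone replicate 2. The 1 gene called between exposures in GFP- cells (the receptor gene Olfr123, at -1.58, noted after its value was seen) became 0 with only the arrays compared, without both replicate 3 pools and with the replicate number as a block, and 0 to 2 without 1 pool.

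Without 1 pool, Rag2 ran from -0.21 to 0.024 in the sort and Prtn3 from -0.13 to 0.19 between exposures in GFP+ cells. In GFP- cells the exposure differences ran from -0.82 to 0.33 for Mpo, -1.25 to 0.16 for Elane, -0.75 to 0.19 for Prtn3 and -0.64 to 0.48 for Ctsg, and the ratio of Prtn3 changed by -0.15 to 0.79. Without both replicate 4 pools, Prtn3 (0.033) and Ctsg (0.0023) turned positive in GFP- cells and the ratio of Prtn3 turned to -0.023. The cause was not tested. With the pool as a replicate block, 7038, 3855 and 4288 genes were called in the sort (both exposures, 2-octanone, vehicle), and no call of a member changed. With the replicate number as a block between exposures 0 genes were called in either fraction; residuals of same-numbered arrays correlated at 0.17 to 0.43 in GFP+ cells, each best with its own number, and at -0.06 to 0.52 in GFP- cells, where 3 of 4 did. Background limits Ctsg, Prtn3 and the 4 B precursor genes. It also limits Mpo and Elane in GFP+ cells, where 2 and 1 of 8 arrays were above it.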

Other observations

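Genes of other blood cells were mostly lower in GFP+ cells, many of them read under background. Natural killer cell genes were called lower in 3 of 5 cases and higher in 1 (median -1.59), with Klrk1 at -1.59 (above background on 1 GFP- array) and Ncr1 at -1.63 (on none), and Eomes higher at 0.59. T cell genes were called lower in 6 of 8 cases (median -0.71), with Cd3e at -1.49, although 6 of the 8 were below background on all arrays; median centring called 4 lower and 2 higher. Stem and progenitor genes were called lower in 6 of 7 cases (median -0.66), although 4 of the 7 were below background on all arrays. With median centring 4 were called lower and 1 higher. Kit, a growth factor receptor, differed most, at -3.20 (SE 0.11, limma adjusted p = 2.2e-11). It was above background on 8 of 8 GFP- arrays and no GFP+ array. Mast cell and basophil genes were called lower in 4 of 9 cases and higher in 1 (median -0.18, and 0.10 with median centring, which called 3 higher), with Cpa3 at -2.37 and Mcpt8 at -2.68, and 6 of the 9 were below background on all arrays. Plasma cell genes were called lower in 3 of 5 cases (median -0.47, and 1 lower and 1 higher with median centring), 4 of the 5 below background on all arrays, and Jchain, the joining chain of antibodies, differed by -5.06 (SE 0.51, limma adjusted p = 7.13e-07).

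Monocyte and macrophage genes were called lower in 5 of 9 cases (median -0.54), with Ly6c2 at -7.57 and Ccr2 at -6.24, while the complement genes C1qa (-0.12), C1qb (-0.28) and C1qc (-0.01) were not called. Globose basal genes were called lower in 3 of 4 cases (median -1.0), with Neurog1 at -1.01, under background on all arrays, and Ezh2 at -0.99. Sustentacular genes were called lower in 3 of 6 cases (median -0.57), with Krt8 at -1.94. The other 3 were not called, with Cyp2g1 at -0.11, Ermn at 0.04 and Cbr2 at 0.34. Mature olfactory neuron genes were called higher in 4 of 8 cases (median 0.26), with Ano2 at 0.53, and in 8 of 8 with median centring, where 66.9% of all probe sets were called higher.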
